A study of Solanum lycopersicum with 18 samples.

Results

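CyP is the tomato gene that RefSeq lists under the synonyms PPIase, ROT1 and Rotamase, and it was followed here along the root tip. It was chosen by its gene identifier and was 1 of 29922 genes with an estimate in each of 18 RNA-Seq libraries. The libraries came from 7-day-old Solanum lycopersicum seedlings of the cultivar Ailsa Craig, either wildtype (WT) or carrying the dgt1-1 allele (dgt). Each genotype was dissected into the meristem, the elongation zone between the meristem and the first root hair bulge, and a differentiation zone of about 1 cm above that bulge. Each of these 6 groups held 3 biological replicates, and a replicate pooled 50 to 100 root portions. All seedlings grew on the same agar medium with sucrose, to which the labels list no added hormone.

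Cyclophilins are peptidyl-prolyl cis-trans isomerases, enzymes that speed the rotation of the peptide bond before proline and so help proteins fold or switch shape. They bind the drug cyclosporin A, while a separate family of isomerases, the FKBPs, binds FK506 and rapamycin. The dgt (diageotropica) mutation lies in a tomato cyclophilin, and its mutants are resistant to auxin and make no lateral roots. No label names the listed gene that carries the mutation, so the level of CyP was not used to check the genotype labels.

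CyP was represented by 1 transcript, NM_001247559.1, of 719 bases, which took 100% of the gene's estimate in each of the 18 libraries. Gene and transcript values were therefore the same. The expected count was not a whole number in 18 of 18 libraries (tolerance 0.005), which is how the estimator writes reads shared out among transcripts. Which other transcripts shared them is not given, and the library kit did not mark strand, so reads from an overlapping antisense RNA would be counted with CyP. A case-sensitive search for gene symbols that begin with CyP found 1, CyP itself. The symbol Cyp-3, which differs in case and has no product in the tables used here, was left out, so other cyclophilins were not surveyed.

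Library totals ran from 17919441 to 29133603 expected counts, with a median of 19874283, and the replicate 2 of WT meristem had the highest total. The zone labels were checked against marker genes, as summed TPM (a level per length of transcript, relative to the whole library). The sum of 9 meristem markers (cyclin A and B, CDKB and ccs52 genes) was 280.4 to 446.5 TPM in meristem libraries and at most 150.3 TPM in the other zones. From meristem to elongation zone 7 of them were called lower and 1 higher in each genotype (edgeR, adjusted p under 0.05). Over all genes 33.5% were called lower and 34.5% higher in WT, and 39.5% and 39.6% in dgt. The sum of 12 expansins, which loosen cell walls, was 388.3 to 664.6 TPM in elongation libraries and at most 261.2 TPM elsewhere. Most of this sum came from exp11 and EXPA8, with means of 355.1 and 124.1 TPM in dgt elongation, and members went both ways from meristem to elongation zone, 8 higher and 4 lower in WT and 5 higher and 5 lower in dgt. The sum of 5 markers of root hairs and nutrient uptake was 283.3 to 540.5 TPM in differentiation libraries and at most 155.5 TPM elsewhere. From meristem to differentiation zone 3 were called higher and 1 lower in each genotype, of 4 tested in WT and 5 in dgt. Over all genes 37.6% were called higher and 34.1% lower in WT, and 38.2% and 44.7% in dgt. The WT meristem replicate 2 had the lowest meristem marker sum of its group, 324.7 TPM against 431.2 and 446.5 TPM, and the highest sum of 21 green tissue markers, 113.2 TPM. Except where stated, the zone ratios, main fold changes and exact tests of CyP that involve WT meristem are therefore also given without it.

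CyP was highest in the meristem, lowest in the elongation zone and intermediate in the differentiation zone of both genotypes. In WT meristem it stood at 4946.01, 6320.77 and 3962.06 TPM, a mean of 5076.28 ± 1184.74 TPM (SD, n = 3). The WT elongation zone held 1529.8, 921.46 and 1271.74 TPM, a mean of 1241.0 ± 305 TPM (SD, n = 3). The WT differentiation zone held 2802.83, 2067.08 and 1935.58 TPM, a mean of 2268.5 ± 467 TPM (SD, n = 3). The 3 zones of WT did not overlap in TPM, and the meristem mean was 4.09 times the elongation mean and 2.24 times the differentiation mean. Without the replicate 2 of WT meristem these ratios were 3.59 and 1.96.

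The dgt libraries fell in the same order with a smaller spread. In dgt meristem CyP stood at 4172.43, 4241.23 and 4339.99 TPM, a mean of 4251.22 ± 84.2 TPM (SD, n = 3). The dgt elongation zone held 1151.48, 942.92 and 954.08 TPM, a mean of 1016.16 ± 117 TPM (SD, n = 3). The dgt differentiation zone held 2120.15, 1844.49 and 1967.46 TPM, a mean of 1977.37 ± 138 TPM (SD, n = 3). No 2 zones of dgt overlapped, and the meristem mean was 4.18 times the elongation mean and 2.15 times the differentiation mean. The coefficient of variation between replicates was 20.6% to 24.6% in the WT groups and 1.98% to 11.6% in the dgt groups.

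**Figure D1:**
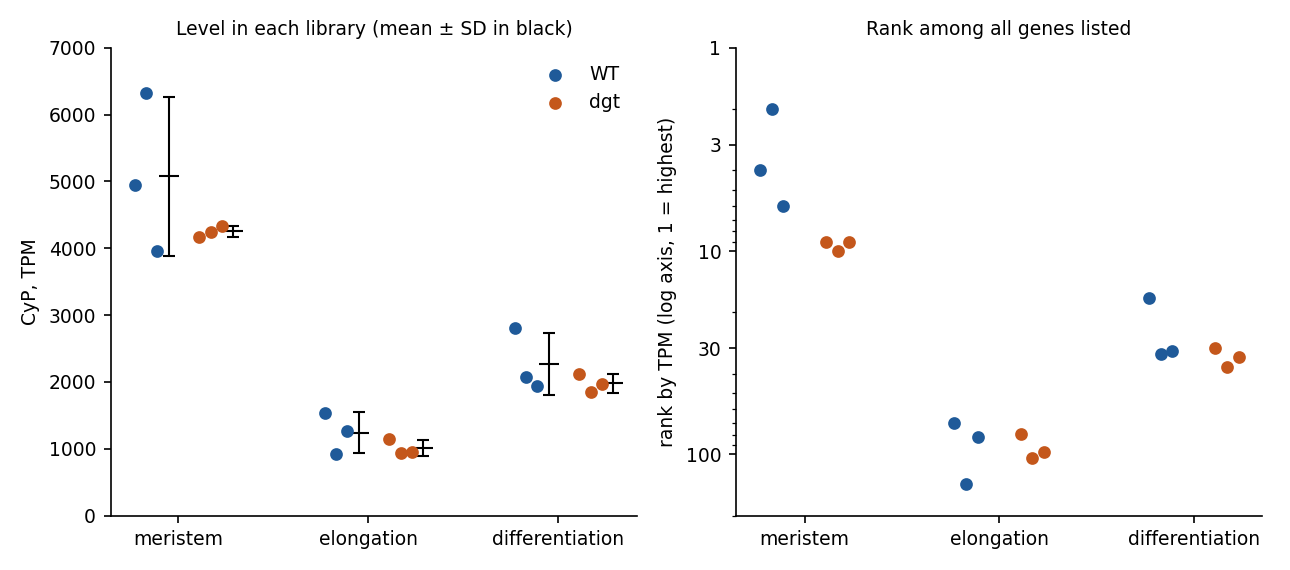
CyP in each of the 18 libraries by root zone, WT in blue and dgt in orange: left, the level in TPM with the group mean ± SD in black, and right, the rank of CyP by TPM among the 29922 genes on a log axis with rank 1 at the top. In both genotypes the meristem libraries sit highest, at 3962.06 TPM or more, and the elongation libraries lowest, at 1529.8 TPM or less.

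Over the 6 groups the order of mean levels was WT meristem, dgt meristem, WT differentiation, dgt differentiation, WT elongation and dgt elongation. In this order each WT group overlapped the dgt group of the same zone. The dgt meristem libraries were all above the WT differentiation libraries, and the dgt differentiation libraries were all above the WT elongation libraries. Zone therefore separated the libraries in TPM and genotype did not. Because these are bulk samples, fewer cells that make CyP and less CyP RNA per cell cannot be told apart.

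CyP was among the most abundant transcripts of the root tip. By mean TPM it ranked 4 of 29922 genes in WT meristem, 89 in WT elongation and 29 in WT differentiation. Its ranks in dgt were 9, 90 and 35 in the same zones. Across single libraries the rank ran from 2 to 6 in WT meristem, from 70 to 139 in WT elongation and from 17 to 32 in WT differentiation. The dgt ranks ran from 9 to 10, from 79 to 104 and from 30 to 37. So all WT meristem libraries placed CyP higher than all dgt meristem libraries, although their TPM values overlapped. CyP took a mean of 0.283% of all counts in WT meristem and 0.245% in dgt meristem, against 0.0617% and 0.0483% in the elongation zones and 0.107% and 0.0915% in the differentiation zones. The highest share of a library was 0.381%, in the replicate 2 of WT meristem.

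The zone differences were tested with edgeR on the expected counts of all genes, within each genotype. From meristem to elongation zone CyP fell in WT by 2.11 on the log2 scale (SE 0.37, 95% interval -2.93 to -1.29, adjusted p = 0.00041). Of the 20617 genes tested in WT, 33.5% were called lower and 34.5% higher in this comparison, and 2424 genes had a more negative fold change than CyP. In dgt it fell by 2.47 (SE 0.13, interval -2.76 to -2.19, adjusted p = 7.48e-10). Of 21665 genes tested in dgt, 39.5% were called lower and 39.6% higher, and 1940 genes had a more negative fold change. A fall between these zones was thus common among all genes, and that of CyP was larger than most.

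From elongation to differentiation zone CyP rose in dgt and did not pass the test in WT. The dgt log2 fold change was 0.76 (SE 0.13, interval 0.49 to 1.04, adjusted p = 0.000132), where 31.0% of genes were called higher and 32.3% lower. The WT log2 fold change was 0.64 (SE 0.36, interval -0.15 to 1.43, adjusted p = 0.159), where 30.2% were called higher and 20.2% lower and the median gene stood at 0.22. In counts scaled by TMM (the trimmed mean of M-values, which estimates a scaling factor for each library), the WT elongation replicate 1 stood at 20270 and the WT differentiation replicates 2 and 3 at 17359 and 16019. These zones of WT thus overlapped in scaled counts while they did not in TPM. With library totals alone, limma on log2(TPM + 1) or a removed length trend, the WT rise passed the test, at 0.80, 0.88 and 0.84.

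From meristem to differentiation zone CyP fell in both genotypes. The fall in WT was 1.47 on the log2 scale (SE 0.36, interval -2.28 to -0.67, adjusted p = 0.00362), where 34.1% of genes were called lower and 37.6% higher. The fall in dgt was 1.71 (SE 0.13, interval -1.99 to -1.43, adjusted p = 1.87e-08), where 44.7% were called lower and 38.2% higher. The WT falls were -1.60 to the elongation zone and -1.14 to the differentiation zone without the replicate 2 of WT meristem (adjusted p = 0.000759 and 0.0065), both called. Leaving out any 1 library of WT gave falls of between -2.51 and -1.60 to the elongation zone and between -1.86 and -1.14 to the differentiation zone, all called. An exact permutation test of log2(TPM + 1) over all 1680 assignments of 9 libraries to 3 zones gave p = 0.00357 in each genotype, the smallest p it allows (adjusted p = 0.00357 over the 2 tests). In WT it was also 0.00357 by the exact permutation test without the replicate 2 of meristem, over 560 assignments.

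The order of zones that CyP followed was not rare. The fitted levels of 22.5% of the genes tested in WT and 19.4% of those tested in dgt ran meristem, differentiation, elongation from high to low. All 3 steps were called for 6.96% of genes in WT, which does not include CyP, and for 7.47% in dgt, which does. The meristem was the called maximum for 25.5% of genes in WT and 33.7% in dgt.

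Few of the most abundant meristem genes had more RNA in the differentiation than in the elongation zone. Of the 100 genes with the highest mean TPM in WT meristem, a set chosen after its values were seen, the median log2 fold change from elongation to differentiation zone was -0.80 in WT and -0.87 in dgt. CyP lay above the 99 others in both genotypes. The next was PGH1, which encodes an enolase of glycolysis, at 0.42 in WT and 0.34 in dgt. In dgt 2 of the 100 genes were called higher in the differentiation zone and 88 lower, where 31.0% and 32.3% of all genes were. In WT 0 were called higher and 61 lower, where 30.2% and 20.2% of all genes were. From meristem to elongation zone CyP was in the middle of the same genes, with 46 below it and 53 above it in WT and 48 and 51 in dgt. The WT meristem level, which chose these genes, is also part of that step in WT. When the 100 genes were instead taken by mean TPM over all 6 groups, 15 in WT and 12 in dgt rose more than CyP from elongation to differentiation zone. From meristem to elongation zone 15 genes of that set lay below CyP and 84 above it in WT, and 19 and 80 in dgt.

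**Figure D2:**
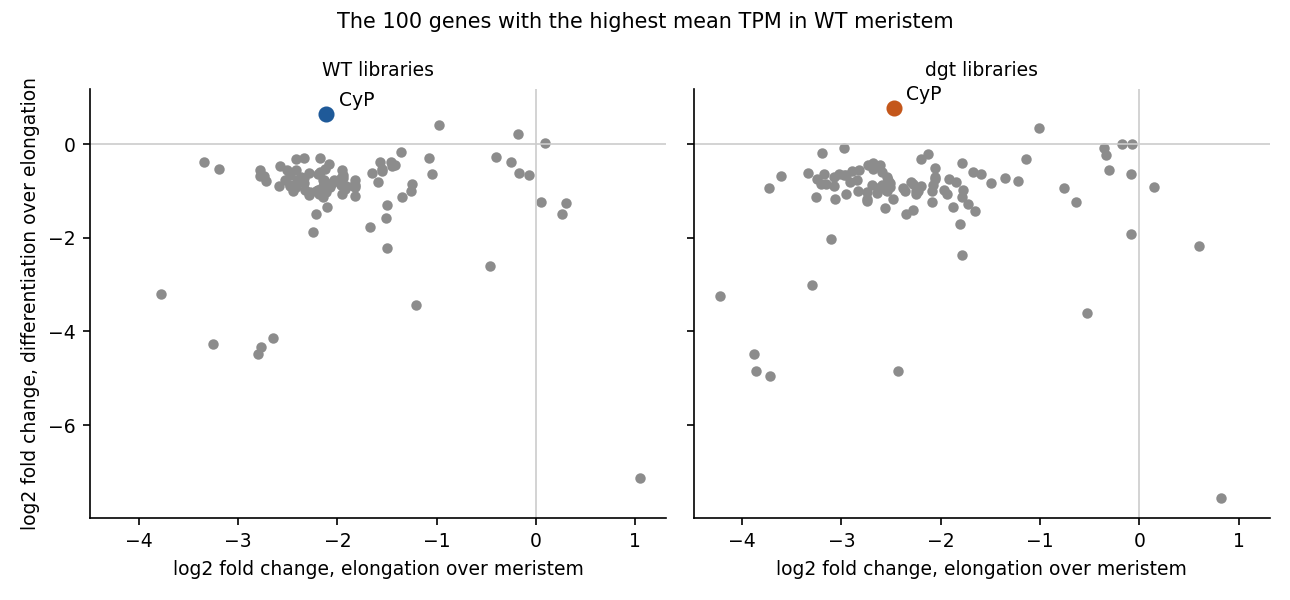
The 100 genes with the highest mean TPM in WT meristem, with the log2 fold change from meristem to elongation zone on the x axis and from elongation to differentiation zone on the y axis, in WT (left) and dgt (right). CyP, in colour, sits in the middle of these genes on the x axis, a set chosen by its meristem level. On the y axis CyP lies above the other 99 genes, at 0.64 in WT and 0.76 in dgt.

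The genes next to CyP in level gave the contrast by name. LOC101256568 ranked 3 in WT meristem with a mean of 5640.08 TPM, and dropped to 942 TPM in the elongation zone and 61.6 TPM in the differentiation zone. LOC101245356 ranked 5 with 4827.6 TPM, and its means were 1080 and 348 TPM in the other zones. In dgt LOC101256568 ran 4713.67, 425 and 21.8 TPM, and LOC101245356 ran 5571.92, 865 and 242 TPM. Both genes were thus lowest in the differentiation zone, where CyP was above its elongation level.

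The genes most like CyP were far less abundant. Likeness was Pearson's r of log2(TPM + 1) over the 18 libraries, which were 3 replicates of 6 groups and share depth and scaling, so r is given as a description. Of 19887 other genes with a mean above 2 TPM in at least 1 group, 577 had r over 0.9, and the median r was -0.26. The closest were LOC101262526 (r = 0.986), LOC101265372 (0.984), LOC101261517 (0.983), LOC101257446 (0.980) and LOC101250878 (0.980). Without the replicate 2 of WT meristem the same 5 genes were the closest, while by Spearman's rho they ranked 6, 15, 11, 11 and 4. LOC101262526 had means of 29.8, 5.12 and 12.4 TPM in the meristem, elongation and differentiation zones of WT, and 20.8, 3.65 and 9.44 TPM in dgt. The most abundant of the 5, LOC101257446, had 373.8, 26.1 and 62.5 TPM in WT and 285.5, 14.6 and 42.7 TPM in dgt.

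Between genotypes, CyP was lower in dgt in each zone by its mean, within the spread of the WT replicates. The dgt mean was 0.838 times the WT mean in the meristem, 0.819 times in the elongation zone and 0.872 times in the differentiation zone. With edgeR on the 6 libraries of a zone, the log2 fold change of dgt over WT was -0.46 in the meristem (SE 0.32, interval -1.21 to 0.28, adjusted p = 0.328). It was -0.066 without the replicate 2 of WT meristem (adjusted p = 0.705). In the meristem 8.31% of 19926 genes were called lower and 14.5% higher. In the elongation zone it was -0.65 (SE 0.24, interval -1.17 to -0.12, adjusted p = 0.0687), with 12.2% of genes called lower and 14.9% higher. In the differentiation zone it was -0.34 (SE 0.20, interval -0.79 to 0.11, adjusted p = 0.234), with 13.4% called lower and 16.1% higher. Without the replicate 1 of WT differentiation it was -0.055 (adjusted p = 0.766). CyP was therefore called in no zone on its own. In the elongation zone the call depended on the fit, since DESeq2 gave the same fold change with an adjusted p of 0.0242, and leaving out the replicate 2 of WT elongation gave -0.84 with an adjusted p of 0.0124 by edgeR. Without the replicate 1 of WT elongation it was -0.33 (adjusted p = 0.232).

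Averaged over the 3 zones, in a fit of all 18 libraries, CyP was lower in dgt by a log2 fold change of -0.50 (SE 0.17, interval -0.86 to -0.15, adjusted p = 0.0211). Like every fit that holds both genotypes, it took 1 spread per gene for WT and dgt. The replicates of CyP varied more in WT than in dgt, so its SE and p rest on a pooled spread. Of 21969 genes tested, 21.6% were called lower and 23.1% higher, and 2410 had a more negative fold change than CyP. This call depended on the scaling of the libraries. TMM factors ran from 0.744 to 1.135 in WT and from 1.014 to 1.178 in dgt, and with library totals alone the fold change was -0.26 (adjusted p = 0.11). That scaling moved the median of all genes from -0.022 to 0.184, and relative to the median CyP stood at -0.48 with TMM and -0.45 with library totals. Leaving out the replicate 1 of WT elongation or of WT differentiation, the WT libraries with the highest CyP in those zones, gave -0.41 in each case (adjusted p = 0.0539 and 0.0524). Without the replicate 2 of WT meristem it was -0.36 (adjusted p = 0.0349).

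In TPM the genotype difference did not pass an exact test with all 18 libraries. The mean difference of log2(TPM + 1) over the zones was -0.22, with a two-sided exact permutation p of 0.06 over 8000 arrangements within zones (adjusted p = 0.24 over 4 tests). It was -0.17 without the replicate 2 of WT meristem (exact permutation p = 0.12). The outcome turned on the WT library left out, in tests mostly added after the data were seen. The exact permutation p, not adjusted, was 0.019 without the replicate 3 of WT meristem. It was 0.0165 without the replicate 2 of WT elongation and 0.0345 without the replicate 3 of WT differentiation. Without any other 1 WT library it was 0.0525 to 0.124. Rescaled by the TMM factors the mean difference was -0.44 (exact permutation p = 0.009, adjusted p = 0.036 over 4 tests). The rescaled test was not run without the replicate 2 of WT meristem. That library had the lowest TMM factor (0.744), and rescaling moved its CyP from 6320.77 to 8496.2 TPM. Within a zone, in TPM not rescaled, the exact permutation p was 0.4 in the meristem, 0.4 in the elongation zone and 0.5 in the differentiation zone. A design of 3 against 3 cannot go below 0.1. Without the replicate 2 of WT meristem the exact permutation p in the meristem was 0.8, over 10 arrangements. Of the 9 meristem markers, 6 were called lower in dgt and 0 higher on average over zones (median -0.40), where 21.6% and 23.1% of all genes were. By zone 3 were called lower in the meristem, 1 in the elongation zone (median 0.111) and 6 in the differentiation zone. The shares of all genes called lower there were 8.31%, 12.2% and 13.4%. Of 20 green tissue markers tested, 19 were called higher in dgt on average over zones, where 23.1% of all genes were. By zone 3 of 20 were called higher in the meristem (median -0.196), 20 in the elongation zone and 19 in the differentiation zone. The shares of all genes called higher there were 14.5%, 14.9% and 16.1%, so the meristem count was near its share. The summed level of the green tissue markers in the differentiation zone was 704.9 to 904.6 TPM in dgt and 173.8 to 193.2 TPM in WT. The part of either list in the CyP difference was not tested.

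**Figure D3:**
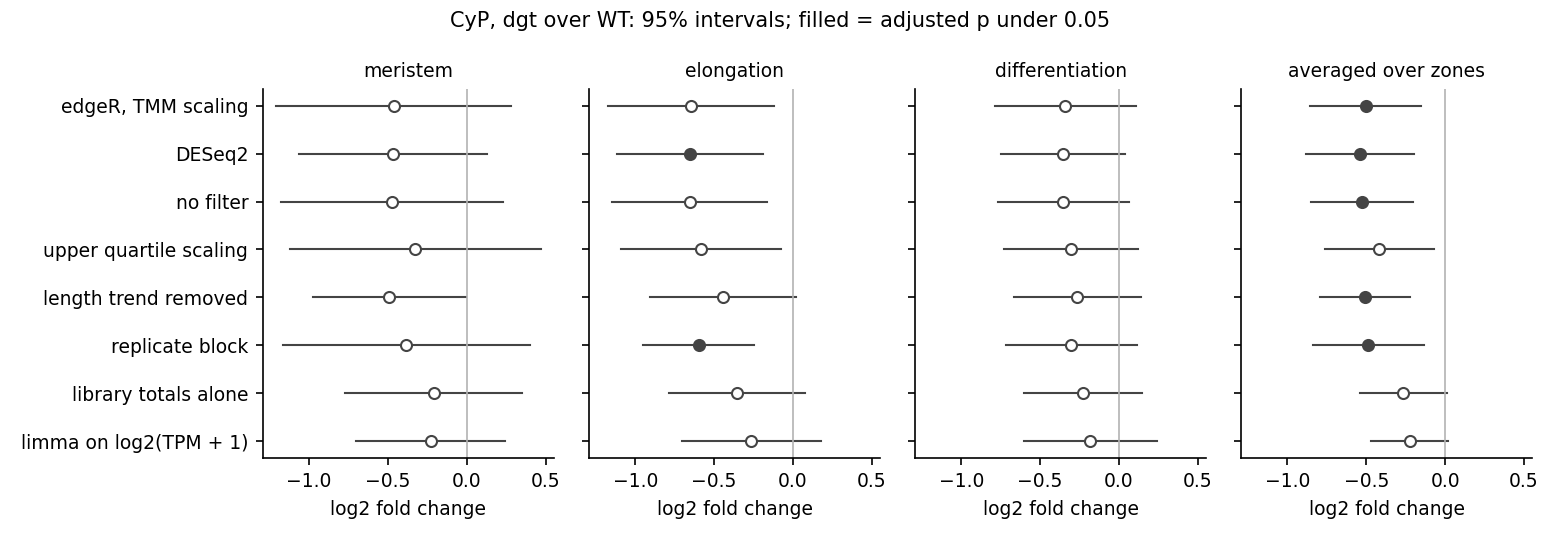
The log2 fold change of CyP, dgt over WT, in the meristem, elongation and differentiation zones and averaged over zones, under 8 fits, with 95% intervals as lines and filled points where the adjusted p was under 0.05. Every point lies below 0, and in the average over zones 5 of the 8 fits are filled.

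The zone profile of CyP did not differ between genotypes at this precision. The dgt minus WT difference of the log2 fold change was -0.15 for elongation over meristem (interval -1.01 to 0.71, adjusted p = 0.846 by edgeR), where 15.2% of genes were called in either direction. It was 0.30 for differentiation over elongation (interval -0.57 to 1.16, adjusted p = 0.815), where 5.99% were called. It was 0.15 for differentiation over meristem (interval -0.72 to 1.01, adjusted p = 0.861), where 13.4% were called. These differences were -0.58, 0.29 and -0.28 without the replicate 2 of WT meristem (adjusted p = 0.222, 0.664 and 0.584), so the last changed sign. The intervals hold differences larger than the genotype effect itself. So the rise from elongation to differentiation zone, called in dgt and not in WT, was not shown to differ between them.

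CyP was also set against 10 genes in common use as references for quantitative PCR, chosen by symbol. Over the 6 group means the coefficient of variation of TPM was 62.7% for CyP, with the highest group 5.0 times the lowest. The adaptor subunit gene CAC varied by 9.15%, the ubiquitin gene UBQ7 by 14.4%, the glyceraldehyde phosphate dehydrogenase gene GAPC2 by 20.4% and the actin gene ACT by 22.8%. GAPDH, TUB and ubi3 varied more than CyP, at 67.7%, 77.5% and 79.8%. The median over 19888 genes present was 55.0%, and 58.0% of them varied less than CyP. Among the 500 most abundant genes the median was 74.6%, and 41.8% varied less.

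The ratio of CyP to the geometric mean of the 10 reference genes in its own library kept the zone order. On the log2 scale it was 4.18 ± 0.45 in WT meristem (4.06, 4.669 and 3.802 in its 3 replicates), 1.88 ± 0.33 in WT elongation and 3.07 ± 0.25 in WT differentiation (SD, n = 3 each). In dgt it was 4.06 ± 0.064, 1.58 ± 0.17 and 2.999 ± 0.094. The reference genes themselves changed between zones, so the size of its zone steps is not that of CyP alone. From elongation to differentiation zone 5 of the 10 were called lower and 1 higher in WT (median -0.507), and 8 and 1 in dgt (median -0.555). Over all genes 20.2% were called lower and 30.2% higher in WT, and 32.3% and 31.0% in dgt. From meristem to elongation zone their medians were 0.233 in WT and -0.0107 in dgt. The genotypes were closer in this ratio, with a mean difference of -0.16 over zones (exact permutation p = 0.197, a comparison added after the data were seen). The tests of this ratio were not run without the replicate 2 of WT meristem. Of the 10 reference genes, 6 were called lower in dgt and 0 higher on average over zones, where 21.6% of all genes were lower and 23.1% higher. Their median was -0.28, and the highest was GAPDH at 0.12, not called. Those called were ACT (-0.48), CAC (-0.32), GAPC2 (-0.66), PP2Ac1 (-0.24), TUB (-0.65) and ubi3 (-0.60).

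The FKBPs, the other large isomerase family, were found by RefSeq symbol, and 23 of 23 were in the files. CyP was more abundant than any of them. Its mean TPM was 8.88, 2.94 and 12.4 times that of the most abundant FKBP in the meristem, elongation and differentiation zones of WT, and 6.43, 2.29 and 12.7 times in dgt. It was also 3.43, 1.5 and 3.28 times the sum of all 23 in WT and 3.09, 1.09 and 2.94 times in dgt. These ratios were lowest in the elongation zone in both genotypes.

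Many FKBP genes fell from meristem to elongation zone, as CyP did. In WT 13 of 20 FKBPs tested were called lower and 2 higher (median -1.05), where 33.5% and 34.5% of all genes were. In dgt 12 of 22 were lower and 4 higher (median -0.70), where 39.5% and 39.6% of all genes were. From elongation to differentiation zone 7 were higher and 3 lower in WT (median 0.32; all genes 30.2% and 20.2%), and 6 were higher and 5 lower in dgt (median 0.12; all genes 31.0% and 32.3%), which is near or below the shares over all genes. From meristem to differentiation zone 10 were lower and 2 higher in WT (median -0.56; all genes 34.1% and 37.6%), and 14 were lower and 3 higher in dgt (median -0.51; all genes 44.7% and 38.2%). The medians over all genes in these comparisons lay between -0.16 and 0.22.

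The order meristem, differentiation, elongation with all 3 steps called was found in 3 of 20 FKBPs in WT, which were FKBP15-3, FKBP53 and FKBP62a. In dgt it was found in 4 of 22, which were those and FKBP43. Over all genes the share was 6.96% in WT, where CyP itself did not meet it, and 7.47% in dgt. FKBP15-3 (LOC101248075) had the steepest fall. It stood at 110.91, 131.85 and 101.15 TPM in WT meristem, 7.24, 5.58 and 8.98 TPM in WT elongation and 20.19, 21.01 and 17.19 TPM in WT differentiation. In dgt it stood at 84.33, 87.25 and 94.48 TPM, then 5.23, 5.57 and 5.32 TPM, then 11.84, 11.97 and 7.13 TPM. No zones overlapped within a genotype, and FKBP15-3 was lower in dgt on average over zones (log2 fold change -0.81, SE 0.14, adjusted p = 0.000113 by edgeR).

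FKBP53 (LOC101252817), whose Arabidopsis counterpart is a nucleolar histone chaperone, fell by 2.91 in WT and by 2.39 in dgt from meristem to elongation zone and then rose by 1.25 and 0.76 on the log2 scale. FKBP62a (LOC101253200) shares its name with an Arabidopsis heat stress protein that binds HSP90. It fell by 2.08 and 1.64 (WT and dgt) and rose by 0.51 and 0.45. Its rise in WT was no longer called when any 1 WT library other than the replicate 3 of meristem was left out (0.31 to 0.59).

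Other FKBPs did not follow CyP. FKBP15-2 (LOC101264667), the most abundant FKBP in the meristem, stood at 499.75, 660.12 and 554.92 TPM in WT meristem, 408.14, 400.78 and 456.34 TPM in WT elongation and 164.64, 149.94 and 152.17 TPM in WT differentiation. It fell from elongation to differentiation zone, at a log2 fold change of -1.66 in WT (SE 0.23, adjusted p = 0.000176 by edgeR) and -1.71 in dgt (SE 0.12, adjusted p = 1.91e-08). From meristem to elongation zone its libraries did not overlap either, and the log2 fold change was -0.54 in WT (SE 0.22, adjusted p = 0.0522) and -0.99 in dgt (SE 0.11, adjusted p = 1.62e-06). FKBP72 (LOC101262070), named after Arabidopsis PASTICCINO1, was higher in the differentiation zone than in the meristem, by 1.12 in WT and 0.97 in dgt. FKBP42 (LOC101249959), whose Arabidopsis counterpart TWISTED DWARF1 is needed to bring auxin transporters to the plasma membrane, stood at 50.7 to 113 TPM in all 18 libraries. Its means were 73.69, 75.5 and 62.48 TPM in the meristem, elongation and differentiation zones of WT, where libraries of the zones overlapped. In dgt they were 60.62, 106.6 and 69.27 TPM, and all elongation libraries, at 101.11 TPM or more, lay above those of the other zones.

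**Figure D4:**
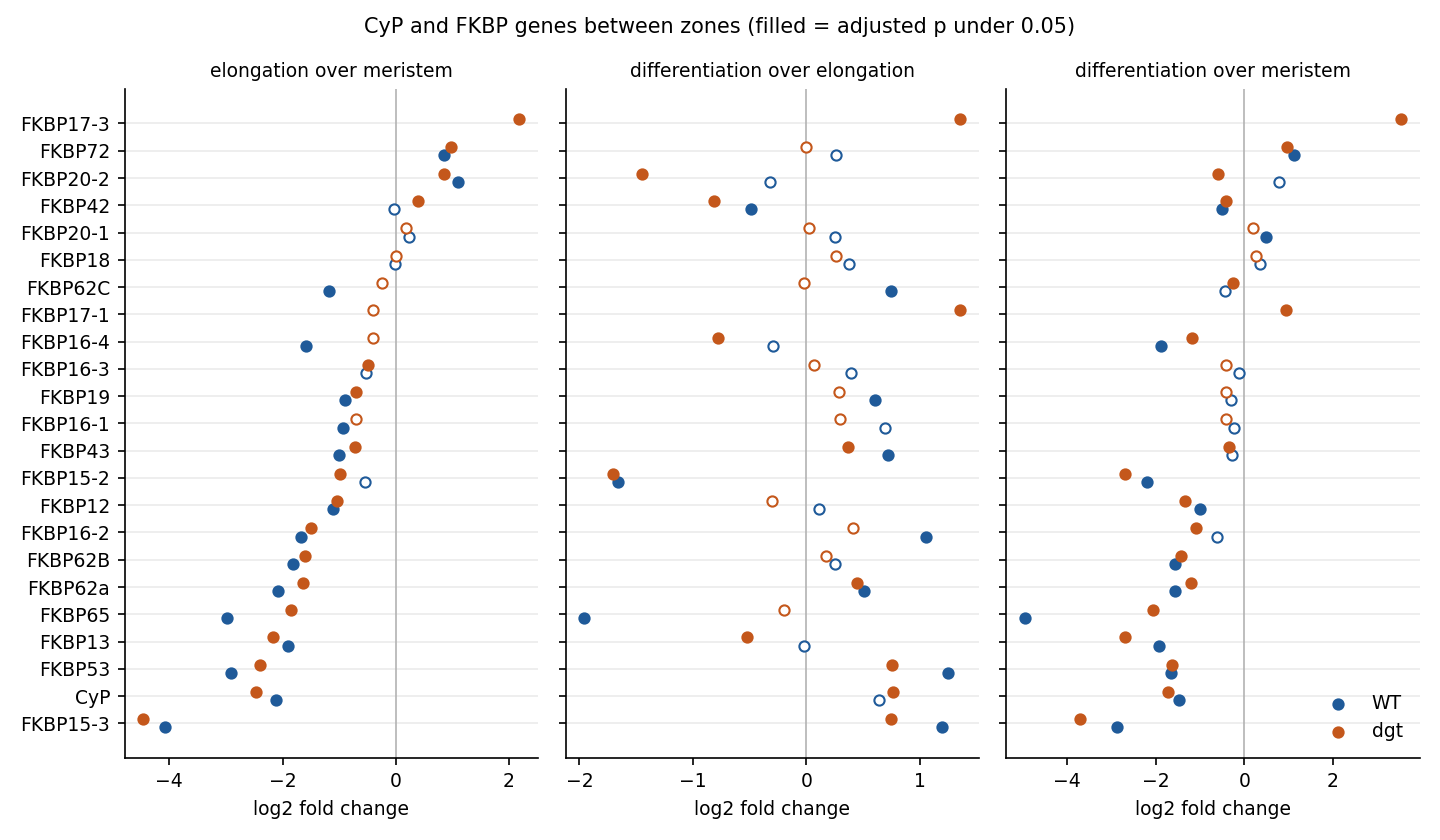
Log2 fold changes between zones of CyP and of the FKBP genes tested, WT in blue and dgt in orange, with filled points where the adjusted p was under 0.05. CyP and FKBP15-3 hold the lowest places on the left axis in dgt, at -2.47 and -4.46, and both rise again in the middle plot.

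Between genotypes some FKBPs were higher and others lower. Averaged over zones 7 of 22 were higher and 6 lower in dgt, with a median of 0.0039, beside 23.1% and 21.6% of all genes. By zone 1 was higher and 2 lower of 20 in the meristem, 6 higher and 1 lower of 20 in the elongation zone, and 5 higher and 2 lower of 21 in the differentiation zone. The shares over all genes were 14.5% and 8.31%, 14.9% and 12.2%, and 16.1% and 13.4%, so the counts in the meristem were near or below them. FKBP12 (SlFKBP12), whose counterparts in yeast and mammals bind FK506 and rapamycin, was lower in dgt on average (log2 fold change -0.64, SE 0.18, adjusted p = 0.00684 by edgeR), like CyP. FKBP18 (LOC101265232) was higher, at 0.88 (SE 0.18, adjusted p = 0.000724). FKBP65 (LOC101255537), named after an Arabidopsis gene of the heat response, was higher by 1.14 on average (SE 0.13, adjusted p = 1.01e-06), and stood at 4.61, 2.88 and 5.17 TPM in dgt differentiation against 0.35, 0.56 and 0.67 TPM in WT. This average did not hold in every zone. The highest of the group means of FKBP65 was that of WT meristem, so the mean of dgt meristem was not higher than that of WT.

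The genes on either side of CyP in the RefSeq gene order were looked at after the data were seen. LOC101254950 was higher in dgt throughout, by a log2 fold change of 2.20 in the meristem, 2.83 in the elongation zone and 2.28 in the differentiation zone (adjusted p = 0.0112, 0.000101 and 1.53e-05 by edgeR). The meristem call was lost without the replicate 1 or 2 of dgt meristem (2.15 and 2.01, adjusted p = 0.0508 and 0.0515). Its levels were low, at 0.18 to 1.24 TPM in the WT libraries and 0.98 to 6.27 TPM in the dgt libraries, and within each zone the genotypes did not overlap. LOC101256330 was lower in dgt meristem, at 25.89, 32.44 and 29.66 TPM against 55.65, 43.13 and 71.73 TPM in WT (log2 fold change -1.08, adjusted p = 0.00311 by edgeR). In the other zones its log2 fold changes were -0.054 and -0.091, not called. CyP thus lay between a neighbour that was higher in dgt in all zones and another that was lower in the meristem.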

How the data were processed

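RNA of 18 libraries was sequenced by the study as single-end reads of 51 bases on unstranded libraries. The authors estimated levels against tomato transcripts with RSEM, after CASAVA 1.8.2 (per the labels), and deposited expected counts, not normalized, and TPM for each gene and transcript, with the percent of a gene's TPM held by each transcript (IsoPct). Tables of the authors' own EBSeq comparisons, which hold posterior probabilities and fold changes, were not used.

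Expected counts were rounded and tested with edgeR 4.0.16 (glmQLFit, glmQLFTest) in R 4.3.3, after filterByExpr (minimum count 10, minimum total 15) and TMM scaling. Zones were fitted on the 9 libraries of a genotype, genotypes on the 6 libraries of a zone, and averages and genotype differences of zone effects on all 18. A call was a Benjamini-Hochberg adjusted p under 0.05 over all genes tested. Alternatives were DESeq2 1.42.0, limma 3.58.1 on log2(TPM + 1) or log2(TPM + 0.1), other scalings and filters, a replicate block, a removed length trend, and each library left out. Exact permutation tests and descriptions used Python 3.11.15 with numpy 2.4.6, pandas 2.3.3 and scipy 1.17.1. The fits were tested on simulated counts with 1 spread for all genes and libraries. That test does not cover the unequal replicate spread of WT and dgt.

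CyP, the lists and the tests were chosen with earlier results of these data known. The named genes were CyP, the 5 genes with the highest r to it, its neighbours in level, FKBP and reference genes by symbol, and zone markers. Of 29922 genes, 2828 were not matched to the RefSeq table (assembly SLM_r2.1), which was used for names and gene order only. Coordinates served only to order the genes. Protein sequences were not used here, so cyclophilins without a matching symbol were not found. Replicate numbers were not found to pair the libraries and were not used as pairs in the main fits. The p-values measure the spread between pooled biological replicates. Replicates of a group differed by more than counting noise (chi-square per degree of freedom of at least 5.0).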

Additional observations from a re-analysis of the deposited data

Results flagged for a closer look

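For CyP itself no zone effect was found to differ between the genotypes, but for 7 of 22 FKBP genes and for LOC101256330 the test of the difference passed in the fit of all 18 libraries. Of the 22, 6 passed for elongation over meristem, 1 for differentiation over elongation and 3 for differentiation over meristem, beside 15.2%, 5.99% and 13.4% of all genes. The values are the dgt minus WT difference of a log2 fold change, with edgeR's adjusted p.

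FKBP65 differed in all 3 zone comparisons, by 1.29 for elongation over meristem (adjusted p = 0.00557), 1.93 for differentiation over elongation (0.00197) and 3.23 for differentiation over meristem (1.98e-06). FKBP62C differed by 1.11 for elongation over meristem (adjusted p = 0.000722) and FKBP16-4 by 1.35 (0.0151). FKBP62a differed by 0.71 for differentiation over meristem (adjusted p = 0.0136). LOC101256330, beside CyP in the gene order, differed by 1.04 for elongation over meristem (adjusted p = 0.00664) and by 0.999 for differentiation over meristem (0.00852). These differences remained called in 18 of 18 fits that left out a library. Of 8 other settings, that of FKBP62a was called in 4, FKBP65's for differentiation over elongation in 7, and the rest in 8.

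The others were less stable. For elongation over meristem FKBP42 differed by 0.59 (adjusted p = 0.0381, called in 7 of 18 fits that left out a library, with values of 0.47 to 0.66), FKBP53 by 0.70 (0.0336, 11 of 18, 0.49 to 0.82) and FKBP62a by 0.60 (0.0334, 9 of 18, 0.43 to 0.69). For differentiation over meristem FKBP17-3 differed by 3.57 (0.0398, 9 of 18, 2.56 to 4.30), at a mean level of 0.326 TPM over the groups. Without the replicate 2 of WT meristem FKBP42, FKBP53 and FKBP62a were still called (adjusted p = 0.00634, 0.0274 and 0.00423) and FKBP17-3 was not (adjusted p = 0.182).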

How the results depend on the processing

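Of 283 alternatives for CyP, 260 kept direction and side of the threshold. All falls from the meristem stayed called. The WT rise from elongation to differentiation zone became called with library totals (0.80), without the length trend (0.84), and with limma at pseudocounts of 1 (0.88) and 0.1 (0.88), and ranged from 0.35 to 0.79 with 1 library left out. The genotype average was not called with upper quartile scaling (-0.42), library totals (-0.26) or limma at pseudocounts of 1 (-0.22) and 0.1 (-0.22), and ranged from -0.60 to -0.36 with 1 library left out. The dgt effect in the elongation zone was called with DESeq2 (-0.65), and ranged from -0.84 to -0.33 with 1 library left out. The genotype difference in log2(TPM + 1) was -0.44 after TMM rescaling, and ranged from -0.29 to -0.17 with 1 WT library left out. The exact permutation p ran from 0.0165 to 0.124 over those left-out libraries. The genotype difference of a zone effect, never called, changed sign for elongation over meristem without the length trend (0.12) and for differentiation over meristem with library totals (-0.018), and with 1 library left out ran from -0.58 to 0.15, from -0.0040 to 0.58 (differentiation over elongation) and from -0.28 to 0.44. The cause was not tested in any of these.

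Replicate numbers were not found to pair the libraries: no pair of groups had correlations over 0.1 for every number. The nearest was WT differentiation with WT elongation (0.322, 0.107 and 0.0865), where 4 of 6 libraries correlated best with their own number. With 3 replicates per group this check cannot show that pairing was absent. The replicate block made the dgt effect in the elongation zone called (-0.60, adjusted p = 0.0153 by edgeR) and changed no other CyP call. For the other named genes 24 of 1045 alternatives ended a call, none turned a direction. Depth was not limiting for CyP, at 8480 expected counts or more in each library.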
